A study of Mus musculus with 12 samples.

Results

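The data describe the messenger RNAs of the potassium, sodium and calcium channel subunits in mouse brain tissue next to a hematoma. Members were chosen by gene symbol: every symbol beginning with Kcn, letters and a number, with Scn, a number and a or b, or with Cacna, Cacnb or Cacng, apart from Kcnj8, Kcnj10, Kcnj13 and Kcne2. The rule found 129 genes among the 21956 in the count table. The rule itself reads symbols and no measured value, but it was set with earlier results of these data known; of the 4 genes left out, Kcnj13 and Kcne2 fell (log2 fold change -7.16 and -4.87) and Kcnj8 rose (1.09) after ICH in Fabp4fl/fl mice. They comprise 40 pore subunits of voltage-gated potassium channels (Kv), 11 Kv auxiliary subunits, 12 inward rectifiers, 14 two-pore potassium channels, 8 calcium- or sodium-activated potassium channels, 4 beta subunits of the large-conductance calcium-activated (BK) channel, 10 sodium channel pores, 4 sodium channel beta subunits, 10 calcium channel pores, 4 alpha2delta, 4 beta, and 8 gamma or related subunits.

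Bulk RNA-seq was available from 12 mice, 3 in each of 4 groups: Sham-Fabp4fl/fl, Sham-Fabp4CKO, ICH-Fabp4fl/fl and ICH-Fabp4CKO. Intracerebral hemorrhage (ICH) was made by injecting collagenase into the right striatum, tissue next to the hematoma was collected after 48 h, and sham mice underwent the same surgery without collagenase. All 4 groups carry floxed Fabp4, which encodes a fatty acid-binding protein. The Fabp4CKO mice also carry a tamoxifen-inducible Cre (CreERT2) under Tmem119, a gene used as a microglial marker, and received tamoxifen before surgery. Whether the Fabp4fl/fl mice received tamoxifen, and the age of these transgenic mice, are not given in the sources used here. The study left out mice that showed no neurological deficit after surgery. It asked what hemorrhage changes and whether loss of microglial Fabp4 alters it.

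The libraries held 15650813 to 22406216 counts. Fabp4 itself had 2, 1 and 2 counts in Sham-Fabp4fl/fl, 0 in each Sham-Fabp4CKO library, 46, 63 and 24 counts in ICH-Fabp4fl/fl and 5, 3 and 10 in ICH-Fabp4CKO, so the labels could be checked in the ICH groups and not in sham, where every count was 3 or less. The tissue pieces differed in regional makeup. The summed level of 10 striatal projection neuron markers was 1886, 2121 and 5601 CPM (counts scaled to a library of fixed size) in the 3 Sham-Fabp4fl/fl mice, that of 8 cortical excitatory neuron markers was 556, 660 and 115 CPM, and that of 8 choroid plexus markers was 870 to 3234 CPM in Sham-Fabp4fl/fl but 46.0 to 54.2 CPM in Sham-Fabp4CKO and 22.0 to 34.3 CPM after ICH. ICH-Fabp4fl/fl mouse 1 had the highest mitochondrial share (16.3%, against 7.90% to 11.9% elsewhere), and ICH-Fabp4CKO mouse 1 held 1 count over 4 Y-linked genes, where each other library held 1302 to 2251. No 2 libraries of a group agreed within sampling noise.

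Voltage-gated sodium channels open on depolarization and carry the rising phase of the action potential. Potassium channels bring the membrane back to rest and set the resting potential, and calcium channels turn depolarization into calcium entry, which triggers transmitter release and gene expression. Most of these channels combine a pore-forming subunit with auxiliary subunits that set surface number and gating. Neurons carry most of them in brain, while some potassium channels are typical of glia and of immune cells.

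In sham tissue the auxiliary subunits held the highest levels per length of exon. Divided by exon length (CPM per kb), Scn4b, a sodium channel beta subunit abundant in striatum, stood at 129.8 ± 82.9 (mean ± SD, n = 3) in Sham-Fabp4fl/fl. Scn2b, another beta subunit, stood at 73.3 ± 15.5, Cacng7 at 70.5 ± 19.2 and Kcnab2, the cytoplasmic Kv beta2 subunit, at 66 ± 16.5 CPM per kb, and the spreads of these 4 genes overlapped. Among sodium channel pores, Scn8a was at 15.8 ± 0.849, Scn2a at 15.4 ± 3.27 and Scn1a at 13.1 ± 4.27 CPM per kb, again within each other's spread. By contrast, Kcna10, Kcna7, Kcnj1, Kcnk15, Kcnk16, Kcnk18, Kcnmb3 and Scn4a had 3 or fewer counts in every library.

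After ICH in Fabp4fl/fl mice, most changes among channel subunits were decreases. Of 111 members with enough counts to be tested, 52 fell and 6 rose at an adjusted p under 0.05, the other 53 passed in neither direction, and 68 of the 111 had an unadjusted p under 0.05 (55.2% of all genes). Over all 14719 genes tested, 19.3% fell and 26.2% rose. The members' median log2 fold change was -1.06, against 0.02 over all genes, and 101 of the 111 estimates lay below 0. The 3 ICH libraries lay wholly below the 3 sham libraries for 59 members and wholly above for 6, where the shares over all genes were 27.4% and 34.4%. The count of decreases depended on single mice. It was 28 without Sham-Fabp4fl/fl mouse 2, 23 without ICH-Fabp4fl/fl mouse 2 and 79 without ICH-Fabp4fl/fl mouse 3. Over all genes the decreases then numbered 1707, 1465 and 3856, against 2845 with every mouse. Of the 58 called members, 27 kept their call under every alternative in which they had enough counts to be tested. Beside genes for which it is said below, Cacna2d2, Cacnb2, Cacng8, Kcna1, Kcna2, Kcnc1, Kcnc2, Kcnip4, Kcnj9, Kcnk3, Scn2b and Scn3a lost it when at least 1 mouse was left out.

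Markers shared by most neurons moved with the channels, whereas markers of neuron types differed among themselves. All 14 neuron markers examined had estimates below 0 in Fabp4fl/fl mice (13 fell, median -1.20), and their summed level was 7043 to 8723 CPM in sham and 2209 to 4826 CPM after ICH, with no marker at 0 in every library of a group. Of the 111 channel members, 48 lay below and 63 above the median of the neuron markers. In whole tissue, fewer neurons and less channel RNA per neuron cannot be told apart. The 8 cortical excitatory markers all fell (median -3.51), whereas 0 of the 10 striatal markers did (median -0.37). Of 8 GABAergic interneuron markers, 1 fell and 1 rose (median -0.60). What part tissue makeup plays in the changes of the channels was not tested.

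The decline was uneven among ICH-Fabp4fl/fl mice. The median member, relative to the sham mean, stood at -1.68, -1.25 and -0.48 on the log2 scale in mice 1, 2 and 3, and the median neuron marker at -1.88, -1.27 and -0.67. Mouse 3 was therefore nearest to sham on both measures. Summed over the members, levels were 7892, 8215 and 9484 CPM in sham and 2499, 3575 and 6729 CPM after ICH.

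In Fabp4CKO mice the median decrease was of like size, -1.03, but fewer members passed: 30 of 113 fell and 6 rose, against 11.1% and 24.5% of all 14737 genes tested. Groups did not overlap for 67 members below and 7 above sham (28.9% and 33.2% of all genes). Here too single mice decided the count. Without Sham-Fabp4CKO mouse 1, 2 or 3, or ICH-Fabp4CKO mouse 1, it was 1, 2, 1 and 1, without ICH-Fabp4CKO mouse 3 it was 18, and without ICH-Fabp4CKO mouse 2 it was 89; over all genes the decreases then numbered 51, 75, 50, 148, 697 and 4896. Kcnk6 alone kept its call under every alternative tried, and Kcnj5 kept its call under every alternative in which it had enough counts to be tested. Relative to the Sham-Fabp4fl/fl mean, the median member stood at 0.06, 0.09 and 0.01 in the 3 Sham-Fabp4CKO mice and at -1.10, -0.18 and -1.46 in the 3 ICH-Fabp4CKO mice, and the median neuron marker at -1.44, -0.40 and -2.04 in the latter. Mouse 2 was the nearest of these to sham. Of the neuron markers 2 of 14 fell (median -1.15; summed level 7696 to 7848 CPM in sham and 2052 to 6085 CPM after ICH). Of the 8 cortical excitatory markers 0 fell (median 0.11), and 0 of their interaction terms passed in edgeR. Their summed sham level was 123 to 178 CPM in Fabp4CKO mice and 115 to 660 CPM in Fabp4fl/fl mice. Of the 10 striatal markers 2 fell (median -1.10), and of the 8 interneuron markers also 2 (median -0.97).

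**Figure D1:**
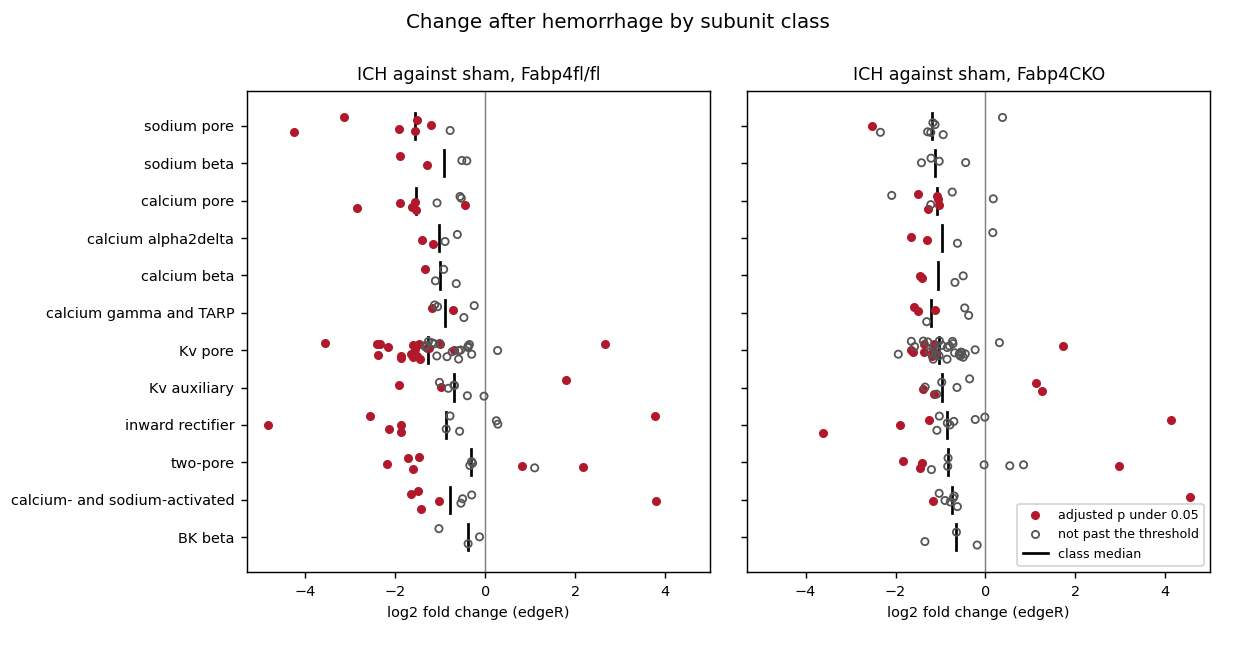
Log2 fold change of each tested member (horizontal axis) after ICH against sham by subunit class (vertical axis), in Fabp4fl/fl mice (left, 111 members) and Fabp4CKO mice (right, 113 members). Filled points passed an adjusted p under 0.05 and black bars are class medians; the medians all lie below 0, and the points far to the right are potassium channel genes.

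**Figure D2:**
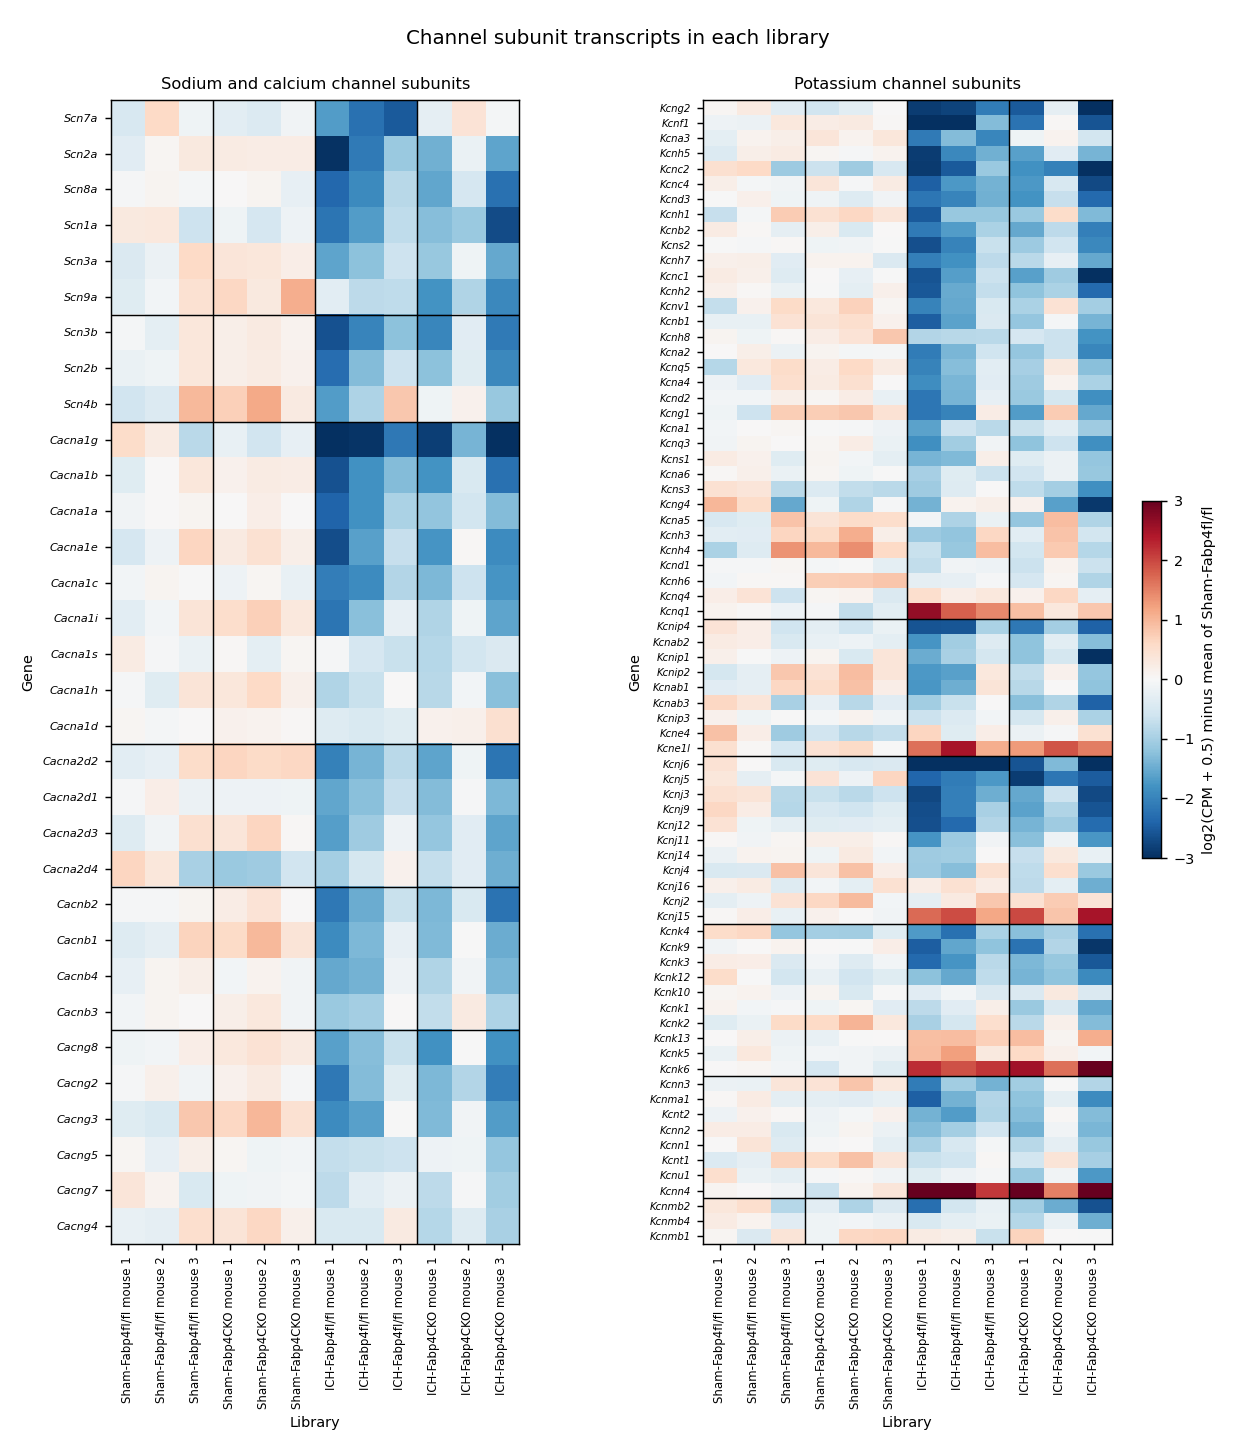
Level of 107 of the 111 tested members in each of the 12 libraries, as log2(CPM + 0.5) minus the mean of the 3 Sham-Fabp4fl/fl libraries; rows are genes ordered by subunit class and columns are mice. Colours saturate at 3 log2 units either way. Blue prevails in the ICH columns, least in ICH-Fabp4fl/fl mouse 3 and ICH-Fabp4CKO mouse 2, and Kcnk6, Kcnn4 and Kcnj15 are red in them.

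Sodium channel pore subunits fell broadly in Fabp4fl/fl mice: 6 of 7 tested members fell, with a class median of -1.57. Scn2a (Nav1.2), which serves the axon initial segment of excitatory neurons, was at 153, 200.3 and 236 CPM in sham and 24.6, 43.9 and 88.9 CPM after ICH, without overlap (log2 fold change -1.93 ± 0.46 (SE), adjusted p = 0.0138). Scn8a (Nav1.6), the main channel of nodes of Ranvier, was 2.97-fold lower (244, 265 and 239 against 48.6, 66.1 and 141 CPM; adjusted p = 0.0158). Scn1a (Nav1.1), prominent in fast-spiking interneurons, was 2.85-fold lower (adjusted p = 0.0236), but lost its call without Sham-Fabp4fl/fl mouse 1 or 2 or ICH-Fabp4fl/fl mouse 2, and Scn2a and Scn8a lost their calls without the last.

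The same pores in Fabp4CKO mice had a class median of -1.19, but Scn9a (Nav1.7), known from pain-sensing neurons, was the one that fell, from 7.3, 5.69 and 10.3 CPM in sham to 0.97, 2.24 and 0.82 CPM after ICH (log2 fold change -2.52 ± 0.45 (SE), adjusted p = 0.0122). Scn1a, Scn2a, Scn3a and Scn8a had log2 fold changes of -1.29, -1.17, -1.12 and -1.22 with adjusted p from 0.0504 to 0.0683.

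Of the 4 sodium channel beta subunits, which anchor and modulate the pores, Scn3b and Scn2b fell in Fabp4fl/fl mice. Scn3b was at 156, 132 and 207 CPM in sham and 26, 40.5 and 68.8 CPM after ICH (log2 fold change -1.90 ± 0.38 (SE), adjusted p = 0.00687), and Scn2b was 2.45-fold lower (adjusted p = 0.038). Scn4b, the most abundant per kb, had values of 386, 432 and 1123 CPM in sham and 178, 299 and 998 CPM after ICH, which overlapped (adjusted p = 0.648). None of the 4 passed in Fabp4CKO mice, with class median -1.12 and 3 of 4 at an unadjusted p under 0.05 in edgeR (52.4% of all genes).

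Calcium channel pores fell in both genotypes. In Fabp4fl/fl mice 6 of 9 tested pores fell (median -1.55), and in Fabp4CKO mice 5 of 9 did (median -1.07). Cacna1a and Cacna1b, the P/Q-type and N-type channels of presynaptic terminals, and Cacna1c, an L-type channel, fell in both. Cacna1a was at 106, 116 and 122 CPM in Sham-Fabp4fl/fl and 21.1, 31.9 and 59.2 CPM in ICH-Fabp4fl/fl (log2 fold change -1.64 ± 0.37 (SE), adjusted p = 0.0106), and at 115, 131 and 116 CPM in Sham-Fabp4CKO and 50.3, 78 and 46.1 CPM in ICH-Fabp4CKO (log2 fold change -1.05 ± 0.22 (SE), adjusted p = 0.0182). Neither pair of groups overlapped. Cacna1b was 3.71-fold and 2.81-fold lower in Fabp4fl/fl and Fabp4CKO mice (adjusted p = 0.00599 and 0.0482), and Cacna1c 2.93-fold and 2.1-fold lower (adjusted p = 0.00922 and 0.0376).

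Among the low-voltage-activated (T-type) pores, Cacna1g fell in Fabp4fl/fl mice and the other members did not pass there. Cacna1g (Cav3.1) was at 96.1, 77.6 and 37.1 CPM in sham and 7.32, 8.1 and 14.3 CPM after ICH (log2 fold change -2.85 ± 0.42 (SE), adjusted p = 0.00212). In Fabp4CKO mice its log2 fold change was -2.09 (adjusted p = 0.0513), whereas Cacna1h and Cacna1i fell by 1.02 and 1.28 on the log2 scale (adjusted p = 0.0472 and 0.0389; in Fabp4fl/fl mice 0.174 and 0.0976). Cacna1d (Cav1.3), the other neuronal L-type pore, changed least of the called decreases: 28.7, 26.2 and 27.7 CPM in Sham-Fabp4fl/fl and 21, 19.9 and 21.1 CPM after ICH (log2 fold change -0.45 ± 0.13 (SE), adjusted p = 0.0238). This call was lost when Sham-Fabp4fl/fl mouse 1 or 2 or ICH-Fabp4fl/fl mouse 2 was left out, and when a fold change of at least 1.5 was also asked for.

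Of the auxiliary calcium channel subunits, 2 of 4 alpha2delta, 1 of 4 beta and 2 of 6 tested gamma subunits fell in Fabp4fl/fl mice, and 2 of 4, 2 of 4 and 3 of 6 in Fabp4CKO mice, where 19.3% and 11.1% of all genes did. Cacna2d1 and Cacna2d2, alpha2delta subunits that bring the pore to the membrane, fell in Fabp4fl/fl mice. Cacna2d1 was at 98.1, 115 and 87.5 CPM in sham and 33.6, 41.8 and 61.4 CPM after ICH (log2 fold change -1.17 ± 0.25 (SE), adjusted p = 0.00963). Cacna2d2 fell in both genotypes (log2 -1.42 and -1.66; adjusted p = 0.0196 and 0.0495), and Cacna2d3 in Fabp4CKO mice (-1.31; adjusted p = 0.0339). Of the intracellular beta subunits, Cacnb2 fell in both genotypes (-1.34 and -1.41; adjusted p = 0.0201 and 0.0466) and Cacnb1 in Fabp4CKO mice (-1.45; adjusted p = 0.0449). The gamma family includes TARPs, which traffic AMPA-type glutamate receptors. Cacng5 and Cacng8 fell in Fabp4fl/fl mice (-0.72 and -1.20; adjusted p = 0.00842 and 0.0123), while Cacng2 (stargazin), Cacng3 and Cacng4 fell in Fabp4CKO mice (-1.49, -1.60 and -1.12; adjusted p = 0.0165, 0.0356 and 0.0132). No interaction term of these genes passed.

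Kv pores gave the largest class: 18 of 36 tested fell and 1 rose in Fabp4fl/fl mice (median -1.26), and 8 of 37 fell and 1 rose in Fabp4CKO mice (median -1.03). Kcnd3 (Kv4.3), a channel of A-type potassium current, had the smallest p of the class. It was at 94.1, 104 and 85.7 CPM in sham and 20.8, 23.6 and 34.7 CPM after ICH (log2 fold change -1.87 ± 0.23 (SE), adjusted p = 0.00104). Kcnc4 and Kcnc2 of the Kv3 family, which lets neurons fire fast, fell by 1.88 and 2.16 on the log2 scale in Fabp4fl/fl mice, and Kcnc1 fell in both genotypes (-1.46 and -1.62; adjusted p = 0.0403 and 0.0405). Kcnc2 was at 157, 170.0 and 52.5 CPM in sham, with mouse 3 near the ICH values of 14.8, 19.1 and 51.6 CPM.

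The Kv1 axonal pores Kcna1 and Kcna2 were at 54.4, 57.9 and 59.6 and 206, 229 and 179 CPM in Sham-Fabp4fl/fl and at 18.4, 37 and 32.7 and 47.5, 78.4 and 135 CPM in ICH-Fabp4fl/fl mice (adjusted p = 0.018 and 0.0277). Kcna2 also fell in Fabp4CKO mice (adjusted p = 0.0372). Kcnq3, a subunit of the M-current that restrains repeated firing, had a log2 change of -0.85 in Fabp4fl/fl mice (adjusted p = 0.122) and fell in Fabp4CKO mice (log2 change -1.18, adjusted p = 0.0348).

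Steep Kv decreases included electrically silent subunits, which form no channel alone and modify Kv2 pores. Kcng2 (Kv6.2) was at 4.87, 5.64 and 3.56 CPM in sham and 0.211, 0.249 and 0.691 CPM after ICH in Fabp4fl/fl mice (log2 fold change -3.57 ± 0.49 (SE), adjusted p = 0.00164). Kcnf1 (Kv5.1) was at 62.8, 61.2 and 86.9 CPM against 5.42, 6.92 and 27.7 CPM (log2 fold change -2.40 ± 0.61 (SE), adjusted p = 0.017), a call lost without ICH-Fabp4fl/fl mouse 2. In Fabp4CKO mice neither passed, with 0.388, 3.73 and 0.109 CPM of Kcng2 and 14.7, 70.9 and 11.2 CPM of Kcnf1 after ICH. Mouse 2 was high for both. It was also the ICH-Fabp4CKO mouse nearest to sham for the median member (-0.18) and the median neuron marker (-0.40). Its summed level of cortical excitatory markers was the highest after ICH, 504 CPM against 22.1 to 126 CPM in the other 5 ICH mice. What part these play in the 2 genes was not tested. Kcnh5 (Kv10.2) was at 4.87, 7.5 and 7.9 CPM in Sham-Fabp4fl/fl and 0.492, 1.37 and 2.13 CPM after ICH (adjusted p = 0.0087). Of the Kv auxiliary subunits, Kcnip4, a calcium sensor of Kv4 channels, fell in both genotypes (-1.92 and -1.40; adjusted p = 0.0212 and 0.0373).

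G-protein-gated inward rectifiers (GIRK), which carry slow inhibition by transmitters, included the deepest decrease among the members. Kcnj6 (GIRK2, ENSMUSG00000043301) was at 16.3, 12 and 8.52 CPM in Sham-Fabp4fl/fl and 0.141, 0 and 1.06 CPM after ICH, the latter from 2, 0 and 20 counts (log2 fold change -4.84 ± 0.83 (SE), adjusted p = 0.0039). In Fabp4CKO mice it went from 9.2, 8.42 and 8.73 CPM to 1.55, 4.42 and 1.04 CPM (log2 fold change -1.90 ± 0.52 (SE), adjusted p = 0.0364), a call lost without any one Sham-Fabp4CKO mouse or ICH-Fabp4CKO mouse 1 or 3. Kcnj5 (GIRK4) fell in both: 6.94, 4.38 and 5.11 against 0.633, 0.873 and 1.28 CPM in Fabp4fl/fl mice (log2 fold change -2.57 ± 0.37 (SE), adjusted p = 0.00187), and 7.26, 4.83 and 8.69 against 0.323, 0.799 and 0.547 CPM in Fabp4CKO mice (log2 fold change -3.60 ± 0.40 (SE), adjusted p = 0.00549). No ICH value of Kcnj5 reached a sham value. Kcnj3 (GIRK1), the common partner, was at 98.9, 94.6 and 40.6 CPM in Sham-Fabp4fl/fl and 10.5, 17.2 and 26.1 CPM after ICH (adjusted p = 0.00789), and in Fabp4CKO mice at 45.6, 41.3 and 47.3 and 24.8, 46.9 and 10.6 CPM (adjusted p = 0.267). Kcnj3, Kcnc2, Cacna1g and Scn1a were each lower in Sham-Fabp4fl/fl mouse 3 than in the other 2 sham mice. That mouse had the lowest summed cortical marker level of the group. Other called members went the other way: Scn2a, Scn3b, Kcnf1 and Kcnh5 were each highest in it. So was the summed level of the members (9484 CPM, against 7892 and 8215 CPM). The part of cortex in the tissue was not tested. Kcnj9 (GIRK3) fell in Fabp4fl/fl mice (adjusted p = 0.0236). Kcnj2 and Kcnj4, classical strong inward rectifiers, passed in neither genotype (log2 0.28 and -0.57 in Fabp4fl/fl mice).

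Two-pore and calcium-activated potassium channels split in direction. Kcnk9 and Kcnk3 (TASK-3 and TASK-1), acid-sensitive leak channels of neurons, fell in both genotypes: Kcnk9 by 3.28-fold and 3.58-fold, and Kcnk3 by 3.06-fold and 2.73-fold (adjusted p = 0.00515, 0.0393, 0.02 and 0.0335). Kcnk1 (TWIK-1), also found in astrocytes, passed in neither (adjusted p = 0.352 and 0.0652). Kcnma1, the BK pore, was at 175, 203 and 139 CPM in Sham-Fabp4fl/fl and 30.9, 63.1 and 92.2 CPM after ICH (log2 fold change -1.498 ± 0.39 (SE), adjusted p = 0.0182), losing its call without either mouse numbered 2. Its beta4 subunit Kcnmb4, at 30.5, 27.7 and 20.3 CPM in sham and 18.6, 20.8 and 22.3 CPM after ICH, did not pass (log2 fold change -0.38 ± 0.19 (SE), adjusted p = 0.132). The small-conductance channel Kcnn3 fell in both genotypes (adjusted p = 0.00907 and 0.0407).

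Against this background 5 potassium channel genes rose in both genotypes: Kcnk6, Kcnn4, Kcnj15, Kcnq1 and Kcne1l. Kcnk13 rose in Fabp4fl/fl mice and Kcne4 in Fabp4CKO mice. Kcnk6 (TWIK-2, ENSMUSG00000046410), a two-pore channel of macrophages that lets potassium out during inflammasome activation, was at 4.91, 5.04 and 4.54 CPM in Sham-Fabp4fl/fl and 24.2, 19.6 and 23.2 CPM after ICH (log2 fold change 2.17 ± 0.17 (SE), adjusted p = 0.00035). In Fabp4CKO mice it rose from 3.24, 4.43 and 3.63 CPM to 30.3, 16.1 and 42.3 CPM (log2 fold change 2.97 ± 0.38 (SE), adjusted p = 0.00613). All 6 ICH mice lay far above all 6 sham mice.

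Kcnn4 (KCa3.1, ENSMUSG00000054342), the calcium-activated channel of lymphocytes, macrophages and red cells, was nearly absent from sham tissue, at 0.482, 0.438 and 0.361 CPM in Fabp4fl/fl and 0.0924, 0.492 and 0.689 CPM in Fabp4CKO mice. After ICH it stood at 7.53, 7.61 and 3.51 CPM (log2 fold change 3.79 ± 0.41 (SE), adjusted p = 0.000676) and 8.6, 2.13 and 19.5 CPM (log2 fold change 4.55 ± 0.99 (SE), adjusted p = 0.0201). Kcnj15 (Kir4.2, ENSMUSG00000062609) had 3 or fewer counts in every sham library and 1.41, 1.75 and 0.797 CPM in ICH-Fabp4fl/fl and 1.81, 0.533 and 2.73 CPM in ICH-Fabp4CKO mice. Against a floor of 3 counts per library it was at least 8.01-fold and at least 12.2-fold higher after ICH (adjusted p = 0.00678 and 0.014). Kcnn4 and Kcnj15 had too few counts to be tested between the sham groups. They therefore entered the ICH tests only through the ICH libraries, where they are high, which limits what these adjusted p add. Without a filter on low counts both were also called higher in each genotype.

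Kcnq1 (Kv7.1, ENSMUSG00000009545), a channel of heart and epithelia, was at 0.723, 0.657 and 0.516 CPM in Sham-Fabp4fl/fl and 6.54, 3.43 and 2.55 CPM after ICH (log2 fold change 2.65 ± 0.44 (SE), adjusted p = 0.0033). In Fabp4CKO mice the values were 0.601, 0.179 and 0.414 and 1.62, 0.906 and 1.48 CPM (log2 fold change 1.73 ± 0.50 (SE), adjusted p = 0.0405). The antisense RNA Kcnq1ot1 lies within Kcnq1, and no strand setting is given in the sources used here, so reads of the pair cannot be told apart. Kcne1l (Kcne5, ENSMUSG00000090122), a single-pass subunit that modulates Kcnq1 channels, was at 10.8, 7.89 and 5.27 CPM in Sham-Fabp4fl/fl and 25, 44.8 and 16.8 CPM after ICH (log2 fold change 1.81 ± 0.40 (SE), adjusted p = 0.0103), and at 10.6, 11.8 and 7.68 and 19.2, 29.8 and 23.1 CPM in Fabp4CKO mice (log2 fold change 1.27 ± 0.24 (SE), adjusted p = 0.0134).

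Kcnk13 (THIK-1, ENSMUSG00000045404), the background potassium channel of resting microglia, was at 17.7, 19.99 and 15.4 CPM in Sham-Fabp4fl/fl and 33.4, 34.2 and 29.3 CPM after ICH (log2 fold change 0.82 ± 0.15 (SE), adjusted p = 0.00461). In Fabp4CKO mice its log2 fold change was 0.85, not past the threshold (15.1, 17.5 and 17.7 against 33.8, 18.5 and 38.1 CPM; adjusted p = 0.0551). Kcne4, an inhibitory partner of Kcnq1 and Kcna3 channels, was at 1.02, 0.761 and 0.873 CPM in Sham-Fabp4CKO and 1.49, 1.7 and 2.57 CPM in ICH-Fabp4CKO mice (log2 fold change 1.12 ± 0.32 (SE), adjusted p = 0.0408). That call was lost without a filter on low counts, with all 12 libraries in one fit, with the replicate block, and without any one of 5 libraries (all but ICH-Fabp4CKO mouse 2). Kcne3, picked out here after its values were seen, had too few counts for the test, at 0, 2 and 3 counts in Sham-Fabp4fl/fl and 18, 17 and 7 in ICH-Fabp4fl/fl, which is at least 5.47-fold higher against the same floor.

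Markers of immune cells rose in the same libraries, and so did markers of vessel cells. In Fabp4fl/fl mice 7 of 8 microglia markers and 8 of 8 monocyte and macrophage markers rose (medians 1.89 and 5.43), and in Fabp4CKO mice also 7 and 8 (medians 2.23 and 8.66). Over all genes 26.2% and 24.5% rose. Endothelial markers rose for 8 of 8 in Fabp4fl/fl and 2 of 8 in Fabp4CKO mice. Pericyte and smooth muscle markers rose for 7 and 6 of 8, and astrocyte markers for 3 of 8 in each genotype. The summed monocyte and macrophage level was 25.3 to 69.9 CPM in Sham-Fabp4fl/fl, 922 to 2380 CPM in ICH-Fabp4fl/fl, 19.3 to 26.2 CPM in Sham-Fabp4CKO and 1151 to 9334 CPM in ICH-Fabp4CKO mice, and no marker of the list was at 0 in all libraries of a group. The part of any of these cell types in the increases of channel genes was not tested.

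**Figure D3:**
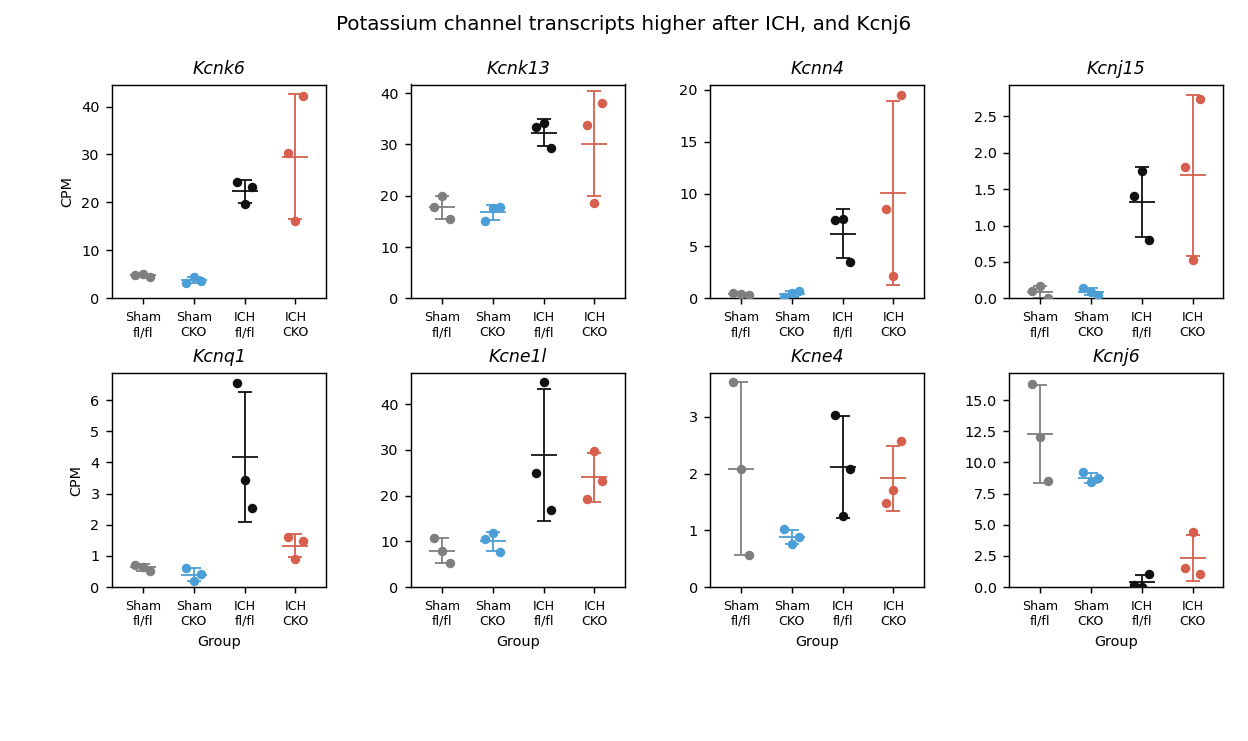
CPM of the 7 members that rose after ICH in at least 1 genotype, and of Kcnj6, in each of the 12 mice (points), with mean ± SD per group (n = 3). For Kcnk6, Kcnn4 and Kcnj15 all ICH points lie above all sham points, and for Kcnj6 all lie below.

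Sequences upstream of these genes are shown because members of one gene family moved in opposite directions. RefSeq (GRCm38.p6) windows of 250 bases before to 50 after a start matched 94 of the 129 members (129 windows, since some genes have several starts). The median GC content was 58.3% over the members' windows and 52.7% over all 32851. Kcnj15 and Kcnj6 are neighbours among protein-coding genes on chromosome 16, and the first was higher and the second lower after ICH. The 250 bases before the start are given 5′ to 3′ on the strand of the gene. Capitals mark a GC box (GGGCGG) or an E-box (CACGTG), searched on both strands; the motifs do not overlap here.
Kcnn4 (chr7:24370013-24370262, plus strand): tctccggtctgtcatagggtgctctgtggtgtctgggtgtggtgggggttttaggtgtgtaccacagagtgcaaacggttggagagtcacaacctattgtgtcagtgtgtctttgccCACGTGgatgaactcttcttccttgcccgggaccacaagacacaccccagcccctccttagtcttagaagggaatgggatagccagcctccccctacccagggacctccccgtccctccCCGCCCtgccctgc
Kcnj15 (chr16:95257308-95257557, plus strand): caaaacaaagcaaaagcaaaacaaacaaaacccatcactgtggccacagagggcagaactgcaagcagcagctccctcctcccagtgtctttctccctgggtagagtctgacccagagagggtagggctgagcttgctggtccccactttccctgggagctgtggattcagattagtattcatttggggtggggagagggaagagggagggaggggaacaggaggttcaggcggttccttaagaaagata
Kcnj6 (chr16:94997697-94997946, minus strand): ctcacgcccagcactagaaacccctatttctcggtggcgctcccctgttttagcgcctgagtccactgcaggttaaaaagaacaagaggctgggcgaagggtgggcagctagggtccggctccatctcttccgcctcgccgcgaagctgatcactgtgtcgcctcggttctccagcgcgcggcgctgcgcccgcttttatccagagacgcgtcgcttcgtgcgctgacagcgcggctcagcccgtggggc
Kcnk13 (chr12:99964249-99964498, plus strand): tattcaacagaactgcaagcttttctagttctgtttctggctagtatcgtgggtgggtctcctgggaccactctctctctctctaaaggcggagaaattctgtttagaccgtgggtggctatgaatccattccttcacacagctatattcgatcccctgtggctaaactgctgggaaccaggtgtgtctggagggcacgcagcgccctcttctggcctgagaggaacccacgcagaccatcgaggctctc
Kcne1l (chrX:142306199-142306448, minus strand): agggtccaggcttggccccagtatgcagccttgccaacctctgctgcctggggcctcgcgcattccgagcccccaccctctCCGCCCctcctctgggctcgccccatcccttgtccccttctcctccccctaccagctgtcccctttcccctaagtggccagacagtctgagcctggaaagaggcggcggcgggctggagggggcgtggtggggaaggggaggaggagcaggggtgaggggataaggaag

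The Kcnn4 window held an E-box starting 133 bases and a GC box starting 14 bases before the start, and the Kcne1l window a GC box starting 169 bases before it. Neither motif was in the 250 bases shown of Kcnj15, Kcnk13 or this start of Kcnj6. A second start of Kcnj6 had a GC box starting 104 bases before it, and the window of Kcne4 an E-box starting 54 bases before the start. GGGCGG was in 45.7% of the members' windows and 35.7% of all windows, CACGTG in 5.43% and 7.15%. The TATA-box core, TATAAA, was in 4.65% and 13.6%, and the AP-1 site TGANTCA in 3.88% and 7.81%. TGACGTCA (CRE) was in none of the members' windows and in 1.79% of all. A match is a string of letters and not a shown binding site.

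The same decreases and increases were then compared between genotypes, in separate libraries. Of 111 members tested in both, 17 fell in both and 5 rose in both, where 7.33% and 20.2% of the 14522 genes tested in both did so. The 17 were Cacna1a, Cacna1b, Cacna1c, Cacna2d2, Cacnb2, Kcna2, Kcnb2, Kcnc1, Kcnh2, Kcnip4, Kcnj12, Kcnj5, Kcnj6, Kcnk12, Kcnk3, Kcnk9 and Kcnn3. Of these, 12 had the larger decrease in Fabp4fl/fl mice. The log2 fold changes had the same sign for 105 of 111 members, and across genes, which are not independent replicates, r was 0.79 and rho 0.62 (r = 0.88 over all genes). Another 35 members fell in Fabp4fl/fl mice without passing in Fabp4CKO mice, and 13 the other way round. Over all genes, 2845 of 14719 fell in Fabp4fl/fl mice, 1642 of 14737 in Fabp4CKO mice and 1065 of 14522 in both.

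**Figure D4:**
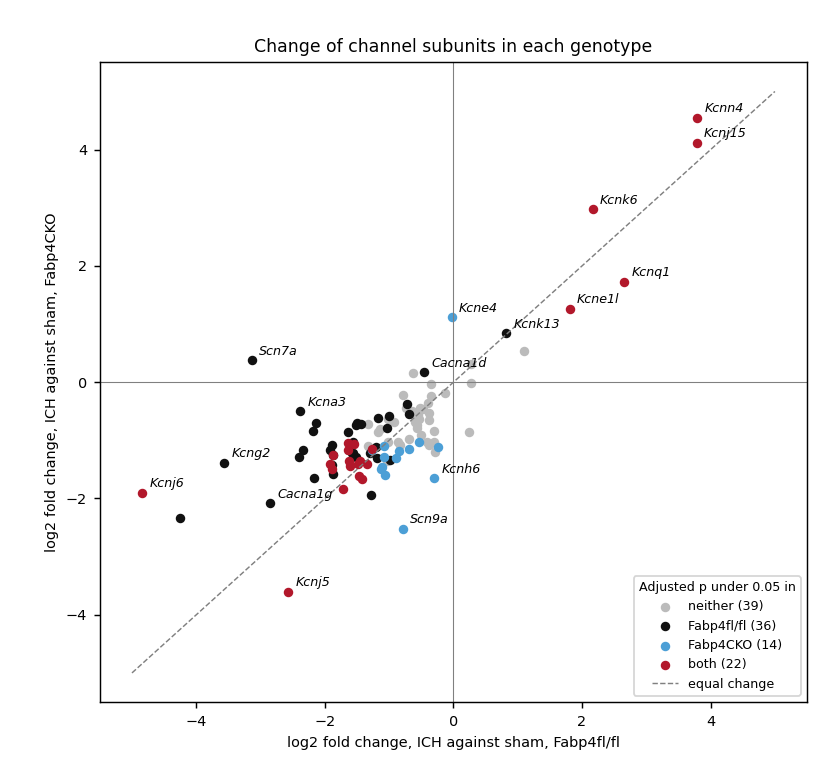
Log2 fold change after ICH in Fabp4fl/fl mice (horizontal axis) and Fabp4CKO mice (vertical axis) for the 111 members tested in both, coloured by where the adjusted p was under 0.05; the dashed line marks equal change. Most points lie below 0 on both axes, and Scn7a lies farthest above the line.

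Whether the response differed by genotype was tested with the interaction term over all 12 libraries. No member passed in edgeR: 0 of 114 had an adjusted p under 0.05 (higher 0.0133% and lower 0.00663% of all genes) and 8 had an unadjusted p under 0.05, against 9.94% of 15089 genes. DESeq2 called 3 of the 114 members, Scn7a, Kcna3 and Cacna1d, all as higher. Among all 15089 genes it called 183 higher and 83 lower. The direct comparison of ICH-Fabp4CKO with ICH-Fabp4fl/fl gave likewise 0 of 110 in edgeR, where 0 genes in all passed. Of the members, 5 had an unadjusted p under 0.05 (12.2% of 14600 genes). DESeq2 gave the same 3 genes as higher and called Kcnq1 lower, with 255 higher and 323 lower among all 14600 genes. With all 12 libraries in one fit the same 3 were higher, with 154 higher and 208 lower among all 15089 genes. The 2 groups did not overlap for Cacna1d, Kcna3, Kcnn3 and Scn7a, which were higher in ICH-Fabp4CKO (8.30% of all genes), and for Kcnj16, Kcnq1 and Scn9a, which were lower (11.5%). This comparison shares its ICH libraries with the others. The median member was 0.18 higher in ICH-Fabp4CKO mice on the log2 scale and ranged from -0.29 (without ICH-Fabp4CKO mouse 2) to 0.57 (without ICH-Fabp4fl/fl mouse 3) when 1 mouse was left out.

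Scn7a (Nax, ENSMUSG00000034810), a sodium sensor of glia in the brain's salt-sensing regions, had the smallest p of the members in both tests. It was at 2.46, 5.7 and 3.25 CPM in Sham-Fabp4fl/fl, 0.774, 0.374 and 0.213 in ICH-Fabp4fl/fl, 2.77, 2.6 and 3.31 in Sham-Fabp4CKO and 2.91, 4.9 and 3.44 CPM in ICH-Fabp4CKO mice. It fell after ICH in Fabp4fl/fl mice (log2 fold change -3.13 ± 0.55 (SE), adjusted p = 0.00421), and in Fabp4CKO mice the sham and ICH values overlapped (log2 fold change 0.38 ± 0.27 (SE), adjusted p = 0.278). Every ICH-Fabp4CKO value lay above every ICH-Fabp4fl/fl value (log2 fold change 3.12 ± 0.51 (SE), adjusted p = 0.252; interaction log2 fold change 3.46 ± 0.62 (SE), adjusted p = 0.12). The interaction passed in edgeR when ICH-Fabp4fl/fl mouse 1 or ICH-Fabp4CKO mouse 2 was left out. Over all genes, 19 were then higher and 5 lower without the first, and 260 higher and 111 lower without the second. With every mouse these counts were 2 and 1.

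Kcna3 (Kv1.3), a potassium channel of T cells and microglia, was at 2.79, 3.83 and 4.03 CPM in Sham-Fabp4fl/fl, 0.422, 1.12 and 0.531 in ICH-Fabp4fl/fl, 4.62, 3.81 and 4.55 in Sham-Fabp4CKO and 3.17, 3.78 and 2.24 CPM in ICH-Fabp4CKO mice. ICH-Fabp4fl/fl was the lowest group, without overlap with the other 3 (interaction log2 fold change 1.85 ± 0.49 (SE), adjusted p = 0.284). Cacna1d was also lowest in ICH-Fabp4fl/fl and had its highest mean in ICH-Fabp4CKO, with 30.1, 29.9 and 28 CPM in Sham-Fabp4CKO and 29.99, 30.5 and 38.6 CPM in ICH-Fabp4CKO mice, against the values of about 20 CPM given above for ICH-Fabp4fl/fl (interaction log2 fold change 0.58 ± 0.17 (SE), adjusted p = 0.312). In the opposite direction, Kcnj16 (Kir5.1), a partner of astrocyte Kir4.1, was at 28.7, 34.2 and 29 CPM in ICH-Fabp4fl/fl and 14.2, 20.03 and 8.69 CPM in ICH-Fabp4CKO mice (log2 fold change -1.05 ± 0.31 (SE), adjusted p = 0.339), and Kcnq1 was lower in each ICH-Fabp4CKO mouse than in any ICH-Fabp4fl/fl mouse (log2 fold change -1.57 ± 0.45 (SE), adjusted p = 0.329). Scn9a and Kcnj6 had interaction estimates of -1.78 and 2.92 (adjusted p = 0.346 and 0.395).

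None of the cortical excitatory, oligodendrocyte or endothelial markers passed between the ICH groups in edgeR, but their summed levels did not overlap. The summed cortical excitatory level was 22.1 to 72.5 CPM in ICH-Fabp4fl/fl and 112 to 504 CPM in ICH-Fabp4CKO mice, the oligodendrocyte level 19323 to 29362 and 7327 to 11857 CPM, and the endothelial level 635 to 1316 and 353 to 437 CPM, with no marker of these lists at 0 in every library of a group. Their part in the genotype differences was not tested.

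**Figure D5:**
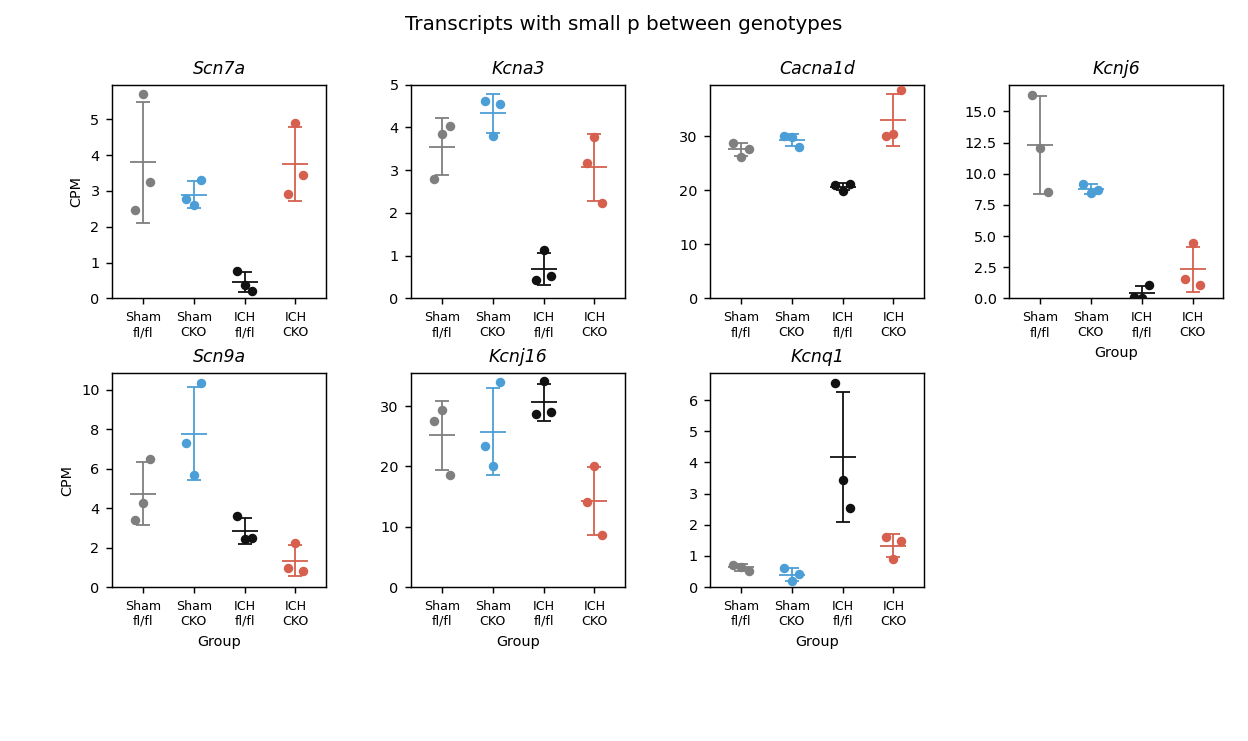
CPM of 7 members with small p between genotypes after ICH or in the interaction, in each of the 12 mice (points), with mean ± SD per group (n = 3). Scn7a and Kcna3 are low in ICH-Fabp4fl/fl.

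Without hemorrhage, no channel gene passed between Fabp4CKO and Fabp4fl/fl mice in edgeR: 0 of 111 members, where 0.111% of all genes were lower and none higher, 9 had an unadjusted p under 0.05 (10.2% of 14395 genes), and DESeq2 also called 0. The smallest adjusted p was that of Kcnh6 (Kv11.2), at 0.964, 1.1 and 1.08 CPM in Sham-Fabp4fl/fl and 2.08, 2.1 and 2.25 CPM in Sham-Fabp4CKO mice (log2 fold change 1.04 ± 0.24 (SE), adjusted p = 0.322). Cacng8, Cacna1i, Cacna2d4 and Kcnj3 followed (log2 0.35, 0.51, -1.18 and -0.79; adjusted p from 0.474 to 0.48). The count depended on Sham-Fabp4fl/fl mouse 3. Without it 32 members were higher and 19 lower in Sham-Fabp4CKO, and among all genes 1531 and 1331. That mouse had the striatal and cortical marker sums nearest to those of Sham-Fabp4CKO (3907 to 6619 and 123 to 178 CPM). What part regional makeup plays in these counts was not tested.

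Genes that work with these channels were examined as well. Of 63 partners listed, 59 were tested: 32 fell and 3 rose in Fabp4fl/fl mice (median -1.02), and 13 fell and 3 rose in Fabp4CKO mice (median -0.96), where 19.3% and 11.1% of all genes fell. Among the pacemaker (HCN) and sodium leak (NALCN) channels and their subunits, 8 of 9 fell in Fabp4fl/fl and 6 of 9 in Fabp4CKO mice. Nalcn fell by 1.41 and 1.23 on the log2 scale, and Dpp6, an auxiliary subunit of Kv4, changed by -1.40 and -1.496 on the log2 scale. Of 18 scaffolds of the axon initial segment and node, 9 and 4 fell, among them Ank3 (ankyrin-G) and Cntnap2 in both genotypes. Rrad, a small GTPase that restrains calcium channels, rose in both (1.37 and 0.90), and of 13 pumps and cotransporters 4 fell and 2 rose in Fabp4fl/fl mice and 1 fell and 1 rose in Fabp4CKO mice, with Atp1b3 higher in both.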

How the data were processed

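Libraries were prepared from polyA RNA (NEBNext Ultra) and sequenced on an Illumina NovaSeq by the authors. The deposited table holds estimated counts for 21956 genes (whole and fractional values), which were rounded. The submitters' processing notes name HISAT2, Bowtie2 2.2.8, StringTie 1.3.1 and DESeq2 without their roles, and the genome build is not given in the sources used here. Counts were tested with edgeR 4.0.16 (R 4.3.3): TMM normalization, filterByExpr (minimum count 10, minimum total 15), quasi-likelihood F-test, Benjamini-Hochberg adjustment over all genes tested and a threshold of 0.05; 2 groups entered each fit, and all 12 libraries the interaction. No covariate was used. Levels are CPM (counts scaled to library size, with TMM factors), and per kb they are divided by union exon length (GENCODE M21, matched by gene ID). DESeq2 1.42.0, other normalizations and filters, and leaving out each mouse were alternatives. The fit was tested on simulated counts. Named genes were all members that rose, the 12 with the largest non-overlapping decrease in Fabp4fl/fl mice, the smallest p in each class and in each genotype comparison, and a selection from a list of well-known subunits; Kcnc4, Kcnip4, Kcnk3, Kcnk9, Kcnn3, Cacng2, Cacng3, Cacng4 and Kcne3 were named after their values were seen. Partner genes and cell type markers are lists from background knowledge. The members and lists were chosen with earlier results of these data known. The depth of 15650813 to 22406216 counts limits genes of a few counts; 3 counts in 1 library correspond to 0.139 to 0.211 CPM over the groups. Each library is a separate mouse by its label, and p-values measure the spread between these mice. Same-numbered mice were checked for pairing and did not deviate together in every comparison, so no block was used. Values of some members are not reported here, though these members are included in the counts.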

Additional observations from a re-analysis of the deposited data

How the results depend on the processing

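Direction held for the median of the members in both ICH comparisons under every alternative, and no called gene changed sign; named genes that did not pass in an ICH comparison were not followed there. Decreases in Fabp4fl/fl mice numbered 43 to 71 under other normalizations, filters, tools and the block (2558 to 3657 over all genes). They numbered 23 to 79 (increases 6 to 8, median -1.60 to -0.80) when 1 mouse was left out. Over all genes the decreases then numbered 1465 to 3856. The cause was not tested. In Fabp4CKO mice DESeq2 called 58 decreases, where it called 3541 of all 14737 genes lower, against 1642 in edgeR. A minimum of 10 counts in every library left 3 increases, with 3060 among all 13483 genes. Leaving out 1 mouse gave 1 to 89 decreases and 1 to 7 increases, with medians of -1.49 to -0.79. Over all genes the decreases then numbered 50 to 4896 and the increases 701 to 5203. Between ICH groups DESeq2 called 3 members higher and 1 lower, where it called 255 and 323 over all genes. The fit of all 12 libraries called 3 higher, with 154 higher and 208 lower over all genes. Leaving out 1 mouse gave 0 in each, with medians of -0.29 to 0.57. In sham, leaving out 1 mouse gave 0 to 32 higher and 0 to 19 lower, with medians of 0.0159 to 0.0827, and the median without a filter was -0.00028. The interaction gave 3 higher with DESeq2 (183 higher and 83 lower over all genes). When 1 mouse was left out it gave 0 to 1 higher and 0 to 1 lower (Scn7a higher, Scn9a lower, medians -0.34 to 0.47). Over all genes these were 0 to 260 higher and 0 to 111 lower. It gave 0 without both ICH mice numbered 1, an alternative chosen after seeing the data. Scalings moved the median of all genes by under 0.1 (log2).

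The correlation of deviations between same-numbered ICH and sham Fabp4fl/fl mice was 0.044 to 0.235 (mean 0.148, against -0.0723 for other pairs). It was -0.00737 to 0.0136 between ICH and sham Fabp4CKO mice, -0.634 to 0.394 between the ICH groups and -0.237 to 0.0749 between the sham groups. With the replicate block, 71 members fell and 6 rose in Fabp4fl/fl mice (3295 and 3967 of all genes). In Fabp4CKO mice 34 fell and 5 rose (1105 and 2579 of all genes). In the other comparisons 0 members passed. At these depths members of a few counts could not be tested.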
